A study of Homo sapiens with 12 samples.

Results

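The cytoplasmic ribosomal proteins were chosen by their symbols, which follow the RPL, RPLP, RPS or RPSA naming pattern, and selected on their measured mean level over the 12 libraries, which had to be at least 10 TPM, a relative abundance scaled for transcript length and library total. All 77 symbols that fit the pattern passed this minimum, out of 21574 features in the deposited table, and 46 belong to the large subunit and 31 to the small one. The member with the lowest mean, RPS28, stood at 257 TPM, so no member lay near the minimum and no matching symbol lay below it. All 77 also passed the filter used for testing, at least 1 TPM in any 3 libraries, which kept 13071 features. FAU encodes a ribosomal protein fused to a ubiquitin-like sequence, but its symbol does not match the pattern and it is described separately.

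The libraries come from MDA-231-LM2, a lung-metastatic derivative of MDA-MB-231, a human line of triple-negative breast cancer. They fall into 4 groups of 3: the TMEM216 population with IGF1 added (TMEM216+IGF1), the TMEM216 population alone (TMEM216), the Ctrl population with IGF1 added (Ctrl+IGF1) and the Ctrl population alone (Ctrl). The labels do not say how the TMEM216 population was made, whether it is 1 clone, which dose of IGF1 was used or for how long. Nor do they say whether replicates were cultured separately, and the spread that the p-values rest on may therefore be technical. TMEM216, whose protein sits at the base of the primary cilium, had a mean of 219 ± 29.2 TPM in the TMEM216 populations and 26.8 ± 2.68 TPM in the Ctrl populations (SD, n = 6 each), a log2 difference of 2.97 (exact permutation test within IGF1 conditions, two-sided p = 0.005, the smallest it can give). Of the markers expected in the line, VIM, CD44, KRT8, KRT18 and EGFR had at least 47.4 TPM in every library, CDH1, ESR1 and PGR at most 0.204 TPM, and ERBB2 31.7 to 42.9 TPM. KRT8 passed as lower in the TMEM216 populations averaged over IGF1 (log2 -0.34 ± 0.042 (SE), limma, adjusted p = 0.000795), in all 22 alternatives too, and its part in the results was not tested. Markers of blood, endothelial and liver cells summed to at most 2.58 TPM, and CD3E and HBB were listed at 0 in all 12 libraries. Of these markers PECAM1, at most 2.15 TPM in any library, passed as higher in TMEM216+IGF1 than in Ctrl+IGF1 (log2 0.68 ± 0.140 (SE), limma, adjusted p = 0.0324). This call was lost in 13 of 22 alternatives (adjusted p up to 0.165), among them those without any one Ctrl or TMEM216+IGF1 library.

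A ribosome is built from a large subunit, which joins amino acids, and a small subunit, which reads the mRNA. Most ribosomal proteins are needed in about the same number of molecules. The mRNAs of ribosomal proteins are short, very abundant, and usually begin with a C followed by a run of pyrimidines, the 5′ terminal oligopyrimidine tract. Through this tract their translation is controlled by mTOR signalling, a pathway that growth factors such as IGF1 activate. That control acts mainly on translation, which RNA levels do not measure.

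The start-site windows are shown because they carry the feature that marks these mRNAs as a class, and because the genes chosen recur in the values that follow. Each window holds the 10 bases before and the 20 bases from a start site annotated by RefSeq on GRCh38.p14, read 5′ to 3′ on the gene's strand, so that its last 20 bases open the first exon. Capitals mark an unbroken run of C and T that begins with C exactly at the start and is at least 5 bases long. Where a gene has several annotated starts, the one with the longest run is shown.
RPS18: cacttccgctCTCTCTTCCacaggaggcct
RPL7A: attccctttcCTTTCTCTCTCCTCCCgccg
RPL11: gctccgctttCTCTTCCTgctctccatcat
RPL14: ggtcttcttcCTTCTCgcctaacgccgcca
RPL37A: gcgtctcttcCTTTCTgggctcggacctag
RPS10: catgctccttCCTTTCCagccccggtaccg
RPL4: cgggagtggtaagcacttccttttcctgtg
RPL10A: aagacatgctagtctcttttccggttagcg
RPS28: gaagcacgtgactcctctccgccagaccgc
RPS18 and RPL7A are the most abundant members of the small and the large subunit, and their windows are chr6:33272065-33272094 and chr9:133348208-133348237, both on the plus strand. The other windows on the plus strand are chr1:23691796-23691825 for RPL11, chr3:40457329-40457358 for RPL14, chr2:216498834-216498863 for RPL37A, chr6:35468391-35468420 for RPL10A and chr19:8321486-8321515 for RPS28. Those on the minus strand are chr6:34426050-34426079 for RPS10 and chr15:66504836-66504865 for RPL4. RPL4, RPL10A and RPS28 have no run at the annotated base, although pyrimidines follow within the window.

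Of the 77 members, 62 had a promoter in the RefSeq table, with several starts for some. A run at an annotated start was found in 46 of these 62 members (74.2%), and in 1404 of all 27305 genes in the table (5.14%). The corresponding search for purines, a run of at least 5 A or G bases that begins with G at the start, matched 1 member (1.61%) and 4.34% of all genes, and with either purine first 2 members (3.23%) and 9.45% of all genes. The longest run among members was 19 bases, in RPL39. Within the 250 bases before the start, CCGGAAG or its reverse complement was present in 21 members (33.9%) and 10.2% of all genes, and TATAAA or its reverse complement in 5 members (8.06%) and 13.0% of all genes. The 46 members with a run had a median level of 1548 TPM and a median SD over the 12 libraries of 0.18 on the log2 scale, and the 16 members without one had 1394 TPM and 0.14.

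The members made up 12.3% to 16.8% of all TPM. They held 25 of the 50 features with the highest mean TPM, 48 of the top 100 and 71 of the top 200. Levels ranged 17.7-fold between members, with a median of 1686 TPM. In the small subunit the highest means included those of RPS18 (4545 TPM), RPS2 (3894 TPM), RPS3A (3256 TPM) and RPS24 (3132 TPM). In the large subunit the 5 highest were those of RPL7A (3928 TPM), RPLP0 (3892 TPM), RPL13A (3520.1 TPM), RPL12 (3366 TPM) and RPL6 (3129 TPM). The lowest means in the small subunit were those of RPS28 (257 TPM), RPS26 (529.6 TPM), RPS29 (609 TPM), RPS15A (753 TPM) and RPS19 (825 TPM). Those in the large subunit were RPL22 (367 TPM), RPL37 (464 TPM), RPL38 (538 TPM), RPL37A (656 TPM) and RPL31 (661 TPM). Within the large subunit alone the levels spread 10.7-fold.

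The share of TPM held by the members was 13.0%, 12.8% and 13.1% in the TMEM216+IGF1 libraries, 14.5%, 12.8% and 13.0% in the TMEM216 libraries, 14.3%, 12.3% and 16.8% in the Ctrl+IGF1 libraries and 13.2%, 12.8% and 12.5% in the Ctrl libraries. Since TPM is relative, less RNA of these genes per cell, fewer cells of a kind and more RNA of other genes cannot be told apart. Every group overlapped every other, and the highest and the lowest library of the series were both in Ctrl+IGF1. The group means were 13.0 ± 0.147% in TMEM216+IGF1, 13.4 ± 0.930% in TMEM216, 14.4 ± 2.25% in Ctrl+IGF1 and 12.9 ± 0.340% in Ctrl (SD, n = 3 each). The difference of means was -1.48 percentage points for TMEM216+IGF1 minus Ctrl+IGF1 and 0.541 for TMEM216 minus Ctrl. It was -0.444 for IGF1 in the TMEM216 population and 1.58 for IGF1 in the Ctrl population. Without Ctrl+IGF1 replicate 3, the share in TMEM216+IGF1 minus that in Ctrl+IGF1 came to -0.313 percentage points and the effect of IGF1 in Ctrl to 0.409. Without TMEM216 replicate 1, TMEM216 minus Ctrl came to 0.00857 and the effect of IGF1 in the TMEM216 population to 0.0878, a change of direction.

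**Figure D1:**
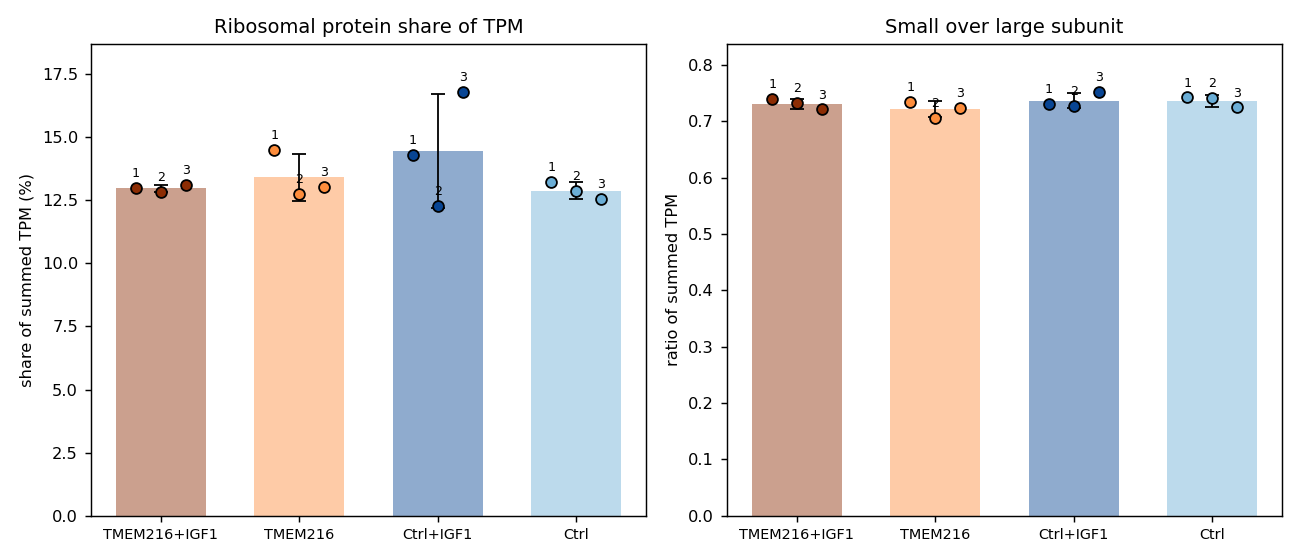
The left panel gives the share of summed TPM held by the 77 members (%) and the right panel the ratio of small to large subunit TPM, for the groups TMEM216+IGF1, TMEM216, Ctrl+IGF1 and Ctrl. Points are libraries, numbered by replicate, bars are means and error bars SD (n = 3); the share reaches 16.8% in Ctrl+IGF1 replicate 3, while the ratio stays between 0.706 and 0.752.

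Both subunits followed the same pattern over the libraries. The large subunit held 7.49 ± 0.111% of TPM in TMEM216+IGF1, 7.79 ± 0.484% in TMEM216, 8.31 ± 1.23% in Ctrl+IGF1 and 7.41 ± 0.162% in Ctrl, and the small subunit held 5.47 ± 0.0539% in TMEM216+IGF1, 5.62 ± 0.448% in TMEM216, 6.13 ± 1.02% in Ctrl+IGF1 and 5.46 ± 0.182% in Ctrl (SD, n = 3 each). The small subunit's TPM divided by the large subunit's was 0.739, 0.733 and 0.721 in TMEM216+IGF1, 0.734, 0.706 and 0.724 in TMEM216, 0.731, 0.727 and 0.752 in Ctrl+IGF1 and 0.742, 0.742 and 0.725 in Ctrl. The groups overlapped here too, with log2 differences of -0.02 for the TMEM216 minus the Ctrl populations and 0.01 for IGF1 added minus not added.

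No member passed the threshold of an adjusted p under 0.05 (limma, Benjamini-Hochberg over 13071 features) in any of the 7 contrasts. For TMEM216 against Ctrl without IGF1, 0 of 77 members passed against 1.09% of all tested features, and 1 member had an unadjusted p under 0.05. For TMEM216+IGF1 against Ctrl+IGF1, 0 of 77 passed against 1.61%, with 13 members at an unadjusted p under 0.05. For the TMEM216 populations averaged over IGF1, 0 of 77 passed against 5.22%, with 3 members at an unadjusted p under 0.05. For IGF1 in TMEM216, 0 of 77 passed against 0.0153%, with 1 member at an unadjusted p under 0.05. For IGF1 in Ctrl, 0 of 77 passed against 0.0306%, with 9 members at an unadjusted p under 0.05. For IGF1 averaged over the populations, 0 of 77 passed against 0.0536%, with 1 member at an unadjusted p under 0.05, and for the interaction 0 of 77 against 0.0153%, with 6 such members. Few features of any kind passed in the IGF1 and interaction contrasts, so a count of 0 there says little about the members. At 1.09% and 1.61% of all features, the same holds for TMEM216 against Ctrl and for TMEM216+IGF1 against Ctrl+IGF1. These percentages refer to the adjusted p. Shares of all features at an unadjusted p under 0.05 are not given here, so the member counts at that cutoff show no excess by themselves.

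The fold changes of the members were small and mostly shared a sign within a contrast. In TMEM216+IGF1 against Ctrl+IGF1 the median log2 fold change was -0.16 over the members and 0.05 over all tested features, and 7 of 77 members were positive. In TMEM216 against Ctrl it was 0.06 over the members and -0.05 over all features, with 57 positive. For IGF1 in TMEM216 it was -0.07 and 0.02, with 15 positive, and for IGF1 in Ctrl 0.18 and -0.09, with 72 positive. Contrasts that share a group are not independent: Ctrl+IGF1 enters both the TMEM216 contrast with IGF1 and the IGF1 contrast in Ctrl, with opposite signs. Large and small subunits had close medians in each, -0.16 and -0.13 in TMEM216+IGF1 against Ctrl+IGF1 and 0.17 and 0.18 for IGF1 in Ctrl.

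These medians depended on single libraries. Without Ctrl+IGF1 replicate 3, the member median was -0.04 for TMEM216+IGF1 against Ctrl+IGF1 and 0.04 for IGF1 in Ctrl. Without TMEM216 replicate 1, it was 0.01 for TMEM216 against Ctrl and 0.003 for IGF1 in TMEM216, the last a change of sign. Leaving out Ctrl+IGF1 replicate 2, the library with the lowest share, moved the medians the other way, to -0.28 for TMEM216+IGF1 against Ctrl+IGF1 and 0.30 for IGF1 in Ctrl. In that fit, which assumes that the remaining libraries vary like the other groups, 12 members passed as lower in TMEM216+IGF1 than in Ctrl+IGF1, where 1.18% of all features did. Among the 12 were RPL35A, RPL37A, RPL38, RPL39, RPS14, RPS21, RPS23 and RPS27. RPL11 passed as higher with IGF1 in Ctrl, the only feature to do so (0.00765% of 13071), and RPL37A, RPL39 and RPS21 passed as lower in the TMEM216 populations averaged over IGF1, as did 3.44% of all features.

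The libraries of the compared groups did not overlap for 11 of 77 members in TMEM216 against Ctrl (21.8% of all tested features) and for 8 in TMEM216+IGF1 against Ctrl+IGF1 (19.7%). They did not overlap for 8 members for IGF1 in TMEM216 (10.2%) and for 6 for IGF1 in Ctrl (14.6%). As shares of the 77 members these come to 14.3%, 10.4%, 10.4% and 7.79%. Averaged over IGF1, the TMEM216 and Ctrl libraries did not overlap for 0 members (4.39% of all tested features), and over the populations those with and without IGF1 for 0 members (0.207%).

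**Figure D2:**
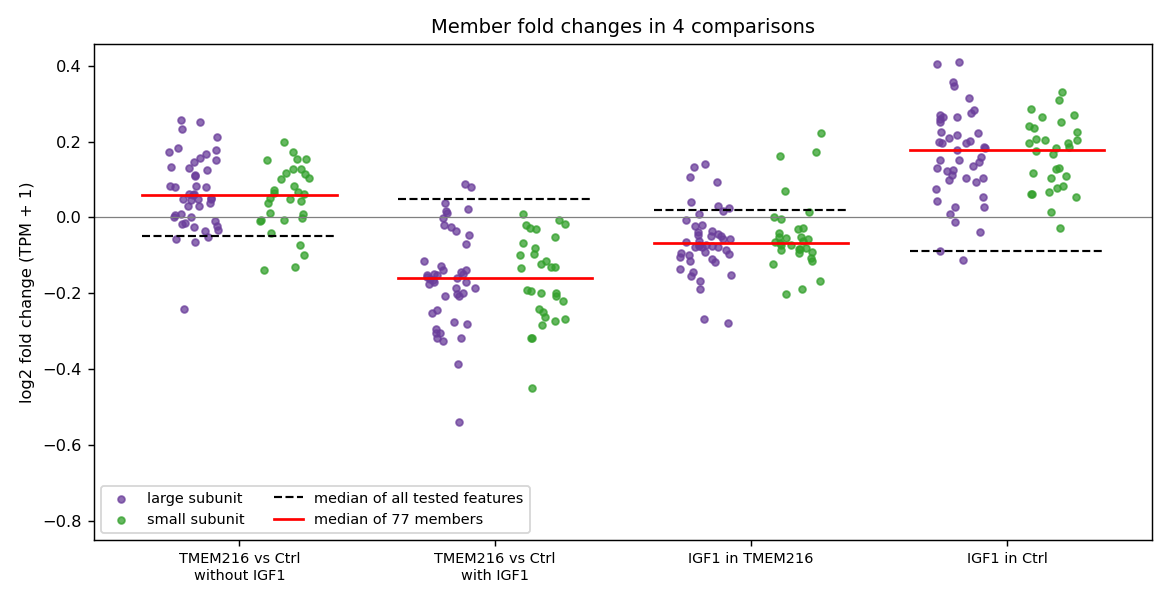
Each point is the log2 fold change (TPM + 1) of a member, purple for the large and green for the small subunit, in 4 contrasts; red lines are medians of the 77 members and dashed lines medians of all 13071 tested features. The member medians run from -0.16 in TMEM216 against Ctrl with IGF1 to 0.18 for IGF1 in Ctrl, and no member passed the threshold.

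The member nearest to a call without IGF1 was RPL4, whose protein lines the tunnel through which new chains leave the large subunit. RPL4 had 1053, 1184 and 1205 TPM in TMEM216+IGF1, 1223, 1152 and 1114 TPM in TMEM216, 1069, 1079 and 1086 TPM in Ctrl+IGF1 and 977, 1052 and 942 TPM in Ctrl. The TMEM216 libraries all lay above the Ctrl libraries, while the groups with IGF1 overlapped. The log2 fold change was 0.23 ± 0.069 (SE) in TMEM216 against Ctrl (limma, adjusted p = 0.147) and 0.16 ± 0.049 averaged over IGF1 (adjusted p = 0.0862).

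RPL11 had the largest change with IGF1 in Ctrl among the members. Its protein forms, with RPL5 and the 5S rRNA, a particle that also binds MDM2. RPL11 had 1126, 1169 and 1181 TPM in TMEM216+IGF1, 1078, 1031 and 1154 TPM in TMEM216, 1352, 1114 and 1381 TPM in Ctrl+IGF1 and 1006, 892 and 988 TPM in Ctrl. All Ctrl+IGF1 libraries exceeded all Ctrl libraries, whereas TMEM216+IGF1 and TMEM216 overlapped. The log2 fold change of IGF1 was 0.41 ± 0.086 in Ctrl (limma, unadjusted p = 0.000465, adjusted p = 0.447) and 0.09 ± 0.086 in TMEM216 (adjusted p = 1.00). Its p ranked 13 of 13071 for IGF1 in Ctrl and did not pass, and the interaction had an adjusted p of 0.754. The other protein of the particle, RPL5, had a log2 fold change of 0.03 ± 0.063 for IGF1 in Ctrl, with a 95% interval from -0.11 to 0.16.

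RPL10A, the protein of the L1 stalk that guides the leaving tRNA, had the smallest p for TMEM216+IGF1 against Ctrl+IGF1. It had 1637, 1602 and 1623 TPM in TMEM216+IGF1, 1712, 1783 and 1769 TPM in TMEM216, 1826, 1759.7 and 1864 TPM in Ctrl+IGF1 and 1693, 1720.3 and 1678 TPM in Ctrl. All TMEM216+IGF1 libraries lay below all libraries of the other 3 groups. The log2 fold change was -0.16 ± 0.052 (limma, adjusted p = 0.155), and the interaction was -0.21 ± 0.073 (adjusted p = 0.754). RPL28, another protein of the large subunit, had -0.39 ± 0.127 in TMEM216+IGF1 against Ctrl+IGF1 (limma, adjusted p = 0.171) and 0.36 ± 0.127 for IGF1 in Ctrl (adjusted p = 0.673).

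RPS10, a small subunit protein and a Diamond-Blackfan anaemia gene, had 2089, 1886 and 2417 TPM in TMEM216+IGF1, 2208, 1885 and 1979.7 TPM in TMEM216, 2599.8, 2593 and 2462 TPM in Ctrl+IGF1 and 2092, 2128 and 2475 TPM in Ctrl. TMEM216+IGF1 lay below Ctrl+IGF1, and TMEM216 and Ctrl overlapped. The log2 fold change of the TMEM216 populations averaged over IGF1 was -0.20 ± 0.069 (limma, adjusted p = 0.121). The readthrough transcript RPS10-NUDT3, which shares exons with RPS10, was listed with a mean of 95.5 TPM and a log2 fold change of 0.43 ± 0.287 in the same contrast (adjusted p = 0.450), so the split of reads between them is uncertain. Of the 9 Diamond-Blackfan genes listed, all encoding members, 0 passed, and their median was -0.14 in TMEM216+IGF1 against Ctrl+IGF1, 0.15 in TMEM216 against Ctrl, -0.06 for IGF1 in TMEM216 and 0.21 for IGF1 in Ctrl.

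RPL37A, a small zinc-binding protein of the large subunit, had the next smallest p among members with lower values in the TMEM216 populations. It had 568, 624 and 607 TPM in TMEM216+IGF1, 649.9, 565 and 538 TPM in TMEM216, 786, 559 and 904 TPM in Ctrl+IGF1 and 699, 701 and 667 TPM in Ctrl. TMEM216 lay below Ctrl, and with IGF1 the groups overlapped through Ctrl+IGF1 replicate 2. The log2 fold change averaged over IGF1 was -0.27 ± 0.098 (limma, adjusted p = 0.146), and -0.37 without Ctrl+IGF1 replicate 2 (adjusted p = 0.00652).

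RPL13A, which besides its place in the large subunit takes part in translational silencing after interferon, had 3488, 3436 and 3633 TPM in TMEM216+IGF1, 3899, 3597 and 3764 TPM in TMEM216, 3423, 3096 and 3806 TPM in Ctrl+IGF1 and 3357, 3376 and 3367 TPM in Ctrl. TMEM216 lay above Ctrl, and the groups with IGF1 overlapped. Averaged over IGF1 its log2 fold change was 0.10 ± 0.052 (limma, adjusted p = 0.336). It passed as higher after quantile normalization (0.15, adjusted p = 0.0280) and after correction for transcript length (0.15, adjusted p = 0.0351). In those fits 461 and 685 of all 13071 tested features passed as higher in that contrast.

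The 4 stalk proteins, RPLP0, RPLP1, RPLP2 and RPL12, form the flexible arm that recruits elongation factors, and none passed in any contrast. RPLP0 had 3797, 4262 and 4069 TPM in TMEM216+IGF1, 3284, 3372 and 4519 TPM in TMEM216, 4111, 3266 and 4685 TPM in Ctrl+IGF1 and 3809.9, 3769 and 3754 TPM in Ctrl. RPLP1 had 853, 843 and 855 TPM in TMEM216+IGF1, 850.4, 679.8 and 850.3 TPM in TMEM216, 995, 599 and 1350.1 TPM in Ctrl+IGF1 and 871, 852 and 748 TPM in Ctrl. Both had their highest and their lowest library in Ctrl+IGF1. RPL12 reached 5207 TPM in Ctrl+IGF1 replicate 3, against 2773 to 3649 TPM in the other 11 libraries. The stalk median was -0.15 in TMEM216+IGF1 against Ctrl+IGF1, -0.03 in TMEM216 against Ctrl, 0.06 for IGF1 in TMEM216 and 0.19 for IGF1 in Ctrl.

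RPS6, the small subunit protein that S6 kinase phosphorylates downstream of mTOR, had 1643, 1579.9 and 1677 TPM in TMEM216+IGF1, 1997, 1631 and 1592 TPM in TMEM216, 1716, 1553 and 1823 TPM in Ctrl+IGF1 and 1599, 1628 and 1566 TPM in Ctrl. All groups overlapped, and the log2 fold change of IGF1 was -0.08 in TMEM216, with a 95% interval from -0.28 to 0.11, and 0.08 in Ctrl, with an interval from -0.11 to 0.28. RPSA, also known as a laminin receptor, ranged from 2254 TPM in Ctrl+IGF1 replicate 2 to 3996 TPM in Ctrl+IGF1 replicate 3. RPS27A, made as a fusion with ubiquitin, ranged from 1207 to 1521 TPM between the same libraries. The most abundant member, RPS18, had 4106, 4054 and 4396 TPM in TMEM216+IGF1, 5325, 4099 and 4048 TPM in TMEM216, 5039.8, 4097 and 6130.0 TPM in Ctrl+IGF1 and 4569, 4433 and 4246 TPM in Ctrl. The least abundant, RPS28, had 254, 246 and 243 TPM in TMEM216+IGF1, 283, 235 and 243 TPM in TMEM216, 294, 219 and 354 TPM in Ctrl+IGF1 and 250.0, 232 and 226 TPM in Ctrl. At both ends of the abundance range the highest value was that of Ctrl+IGF1 replicate 3.

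Across the family, 59 of 77 members had their highest value in Ctrl+IGF1 replicate 3 and 13 in TMEM216 replicate 1, and 29 had their lowest in Ctrl+IGF1 replicate 2. The corresponding counts over other features are not given here. Each member's deviation from its own mean over the 12 libraries, on the log2(TPM + 1) scale, had a median of 0.34 in Ctrl+IGF1 replicate 3, with 73 members above their mean. The median was 0.15 in TMEM216 replicate 1 (62 members above) and 0.11 in Ctrl+IGF1 replicate 1 (66 members above). Of the other tested features, 27.1% lay above their own mean in Ctrl+IGF1 replicate 3, 41.1% in TMEM216 replicate 1 and 45.7% in Ctrl+IGF1 replicate 1. The member median was negative in the other 9 libraries, down to -0.12 in Ctrl+IGF1 replicate 2. The median correlation between pairs of members over the 12 libraries was 0.63, with 91.6% of 2926 pairs positive, and it was 0.39 without Ctrl+IGF1 replicate 3 and TMEM216 replicate 1. The first principal component of the members held 67.6% of their variance, against 22.0% for all tested features.

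**Figure D3:**
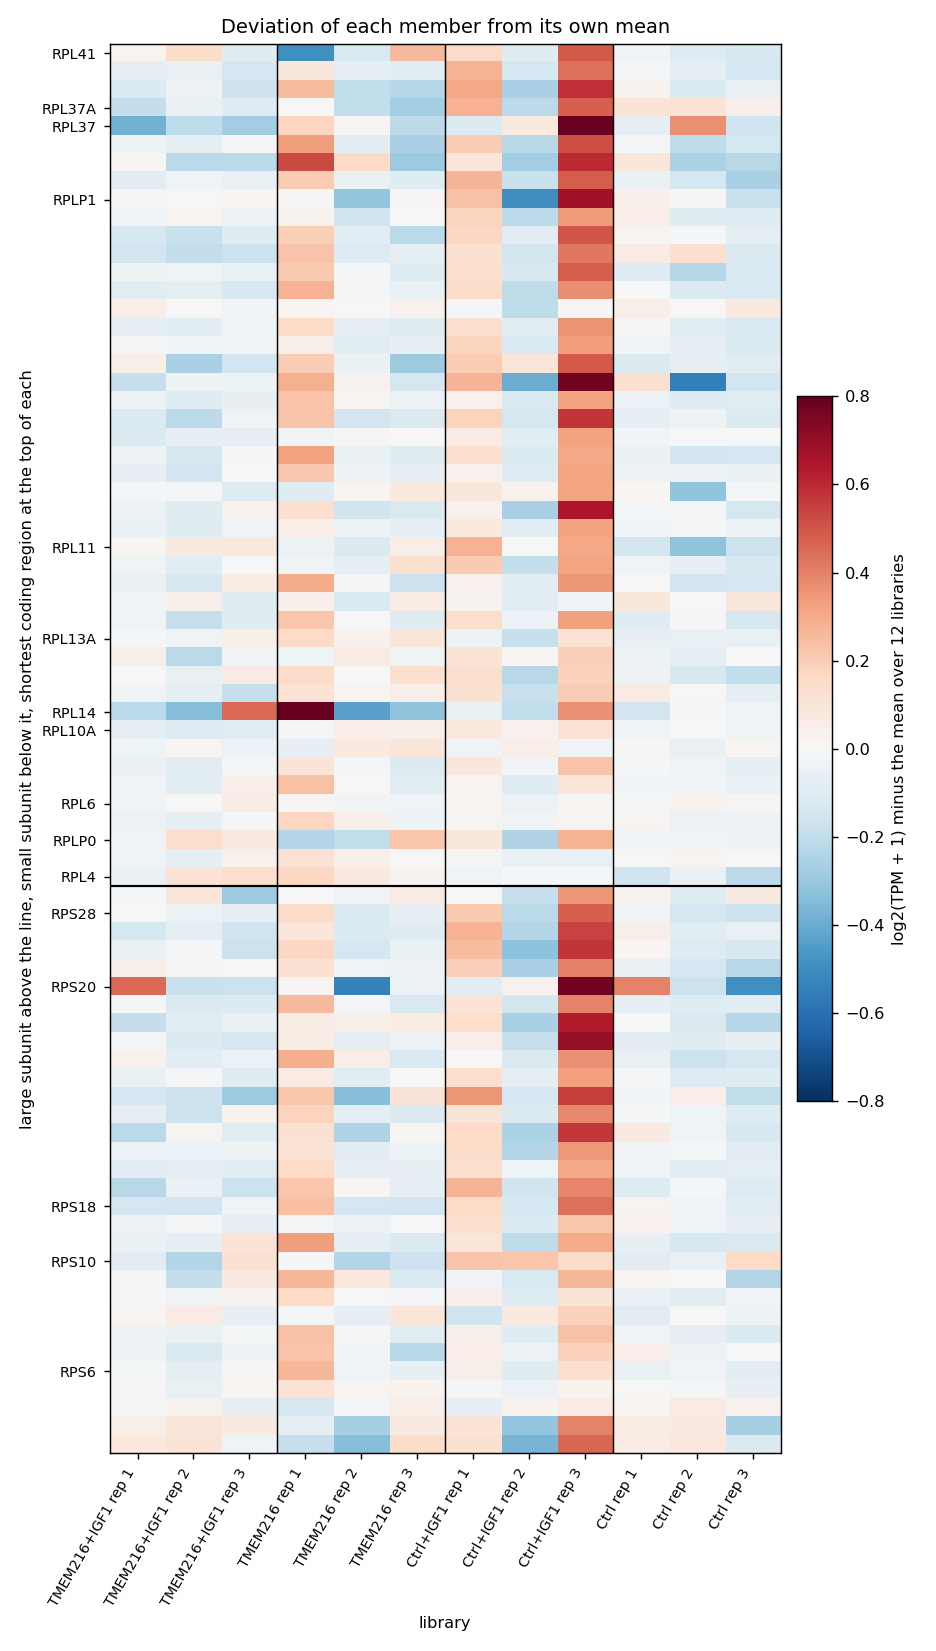
Rows are the 77 members, with the large subunit above the line and the small one below it, each ordered from the shortest coding region at the top, and names mark the 16 whose value in every library is given in the text; columns are the 12 libraries. Colour is the log2(TPM + 1) deviation from the member's mean, limited to 0.8 in either direction; 59 members are highest in Ctrl+IGF1 replicate 3, and RPL14 stands out in TMEM216 replicate 1.

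Of the 3 libraries with a positive median deviation, Ctrl+IGF1 replicates 3 and 1 were the most alike in which members were high. Over the 77 members, their deviations correlated at r = 0.43. Those in TMEM216 replicate 1 correlated at r = 0.14 with Ctrl+IGF1 replicate 3 and at r = -0.03 with Ctrl+IGF1 replicate 1. RPL14, a large subunit protein, varied most of all members (SD 0.40, log2). RPL14 had 689, 634 and 1098 TPM in TMEM216+IGF1, 1543, 592 and 642 TPM in TMEM216, 771, 698 and 1031 TPM in Ctrl+IGF1 and 723, 793 and 781 TPM in Ctrl. TMEM216 replicate 1 was its highest library. RPL41, which encodes the smallest ribosomal protein, was lowest in that same library. RPL41 had 3016, 3284 and 2776 TPM in TMEM216+IGF1, 2113, 2736 and 3551 TPM in TMEM216, 3301, 2773 and 4177 TPM in Ctrl+IGF1 and 2921, 2772 and 2715 TPM in Ctrl.

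RPS20, RPL23 and RPL37 came next in variability, and each differed widely between replicates of a group. RPS20 (SD 0.38) had 1597, 1032 and 1034 TPM in TMEM216+IGF1, 1186, 800.5 and 1131 TPM in TMEM216, 1100.2, 1196 and 1997 TPM in Ctrl+IGF1 and 1535, 1037 and 830.4 TPM in Ctrl. RPL23 (SD 0.34) ranged from 595 TPM in Ctrl replicate 2 to 1488 TPM in Ctrl+IGF1 replicate 3. RPL37 (SD 0.32) had 348, 394 and 373 TPM in TMEM216+IGF1, 511, 455 and 391 TPM in TMEM216, 419.5, 478 and 784 TPM in Ctrl+IGF1 and 429, 585 and 405 TPM in Ctrl. After the median shift of the members was removed from each library, RPL14, RPS20, RPL37 and RPL23 still had the 4 largest SDs, at 0.34, 0.32, 0.25 and 0.24. At the other end were RPL6 (SD 0.03), RPS4X (SD 0.05), RPL3 (SD 0.05) and RPL7 (SD 0.05). RPL6 had 3077, 3119.8 and 3266 TPM in TMEM216+IGF1, 3144, 3076 and 3071 TPM in TMEM216, 3171, 3034 and 3153 TPM in Ctrl+IGF1 and 3100.4, 3184 and 3149.7 TPM in Ctrl, a flat profile in which Ctrl+IGF1 replicate 3 did not stand out.

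The library shift of the members followed a trend with transcript length across other genes. In each library, the deviation of the 12405 other tested features with a known length was regressed on log2 of the length of their principal GENCODE v29 transcript. The slope per doubling of length was -0.136 in Ctrl+IGF1 replicate 3, -0.0507 in TMEM216 replicate 1 and -0.0365 in Ctrl+IGF1 replicate 1. It lay between -0.0046 and 0.0607 in the other 9 libraries. In Ctrl+IGF1 replicate 3, other features up to 500 bases had a median deviation of 0.24, those of 500 to 1000 bases 0.22, those of 2000 to 4000 bases -0.16 and those above 4000 bases -0.30. In TMEM216 replicate 1 the same classes stood at 0.14, 0.10, -0.06 and -0.11. Over the 12 libraries the slope and the member share of TPM had Pearson's r = -0.94 and Spearman's rho = -0.76. Without the 2 libraries farthest from the median slope, Ctrl+IGF1 replicate 3 and TMEM216 replicate 1, r was -0.72. The slope and the median member deviation had r = -0.95, rho = -0.87 and r = -0.77 without those 2. TPM sums to a fixed total in each library, so shares of short and long transcripts are tied to each other, and these correlations are given as a description with no p. With both measures centred on their group means and pooled over the 4 groups, r was -0.94 for the share and -0.96 for the median member deviation, and -0.77 and -0.83 without those 2 libraries; single groups of 3 libraries are too small for a value of their own.

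**Figure D4:**
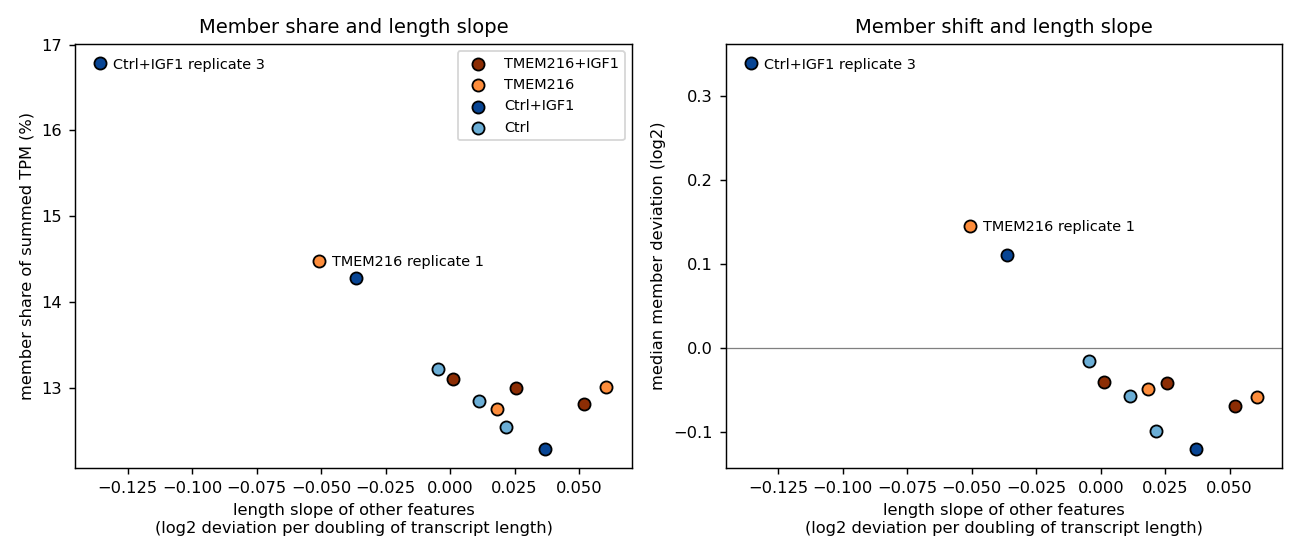
The slope of the log2 deviation of other features per doubling of transcript length (x axis) is set against the member share of TPM (%, left) and the median log2 deviation of the members (right), 1 point per library, coloured by group. The libraries with the most negative slopes, Ctrl+IGF1 replicate 3 (-0.136) and TMEM216 replicate 1 (-0.0507), have the highest shares (16.8% and 14.5%).

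In Ctrl+IGF1 replicate 3 the members exceeded other features of like annotated length. There, the 8 members up to 500 bases had a median deviation of 0.49, against 0.24 in the 64 other features of that length. The 43 members of 500 to 1000 bases had 0.32, against 0.22 in 713 other features, and the 16 members of 1000 to 2000 bases had 0.31, against -0.01 in 2731 others. The 8 members of 2000 to 4000 bases had 0.34, against -0.16 in 4870 others. In TMEM216 replicate 1 the same 4 classes of members stood at 0.13, 0.16, 0.12 and 0.14, against 0.14, 0.10, 0.01 and -0.06 in other features. The annotated length of members is uncertain: the 2 members above 4000 bases, RPL37 and RPL27A, have coding regions of 291 and 444 bases. Over the 77 members the median was 815 bases for the principal transcript and 456 bases for the coding region. Whether the cells express the annotated transcripts was not tested. Members in the classes above 1000 bases may therefore be set against other features of unlike length.

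**Figure D5:**
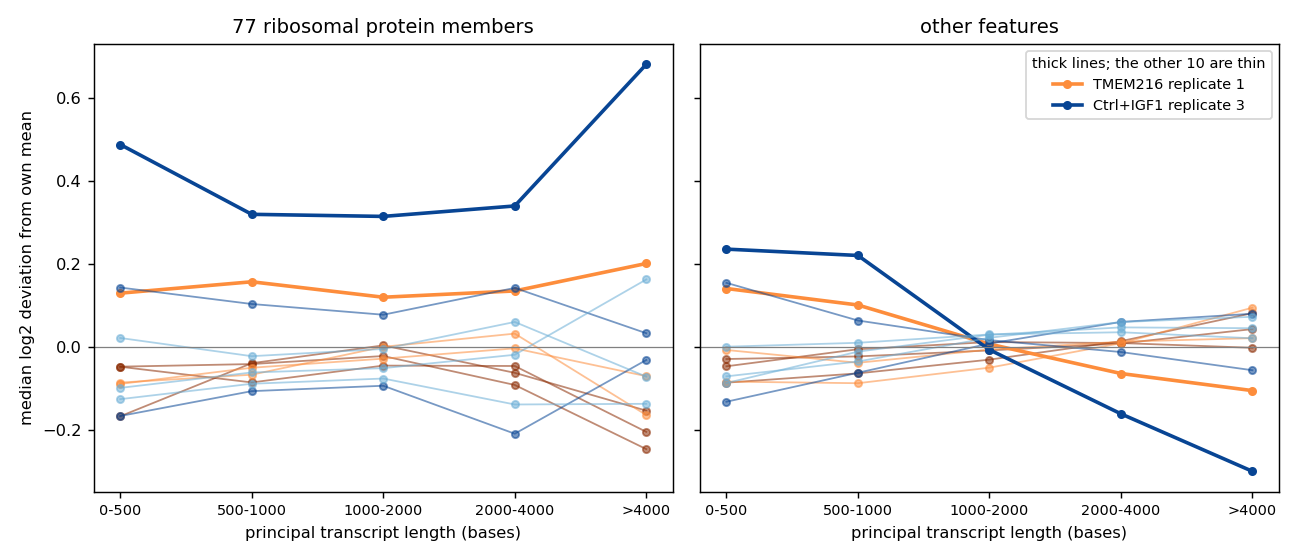
Median log2 deviation from the own mean by class of principal transcript length (bases), for the members (left) and for other features (right), 1 line per library. In Ctrl+IGF1 replicate 3 the other features run from 0.24 in the shortest class to -0.30 in the longest, while the members stay between 0.31 and 0.68; the longest class holds 2 members.

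Within the family, coding length gave a clearer order than annotated transcript length in some libraries. The slope of the member deviations on principal transcript length lay between -0.029 and 0.0335 per doubling in all 12 libraries. On coding length it was -0.187 in Ctrl+IGF1 replicate 3 (r = -0.62 over 77 members) and -0.0704 in Ctrl+IGF1 replicate 1 (r = -0.45). It was 0.0819 in TMEM216+IGF1 replicate 3 (r = 0.51) and 0.0175 in TMEM216 replicate 1 (r = 0.07). The reverse held in Ctrl replicate 2 and TMEM216+IGF1 replicate 1, where r was 0.27 and -0.27 with principal transcript length. With coding length r was 0.19 and 0.11 there. The 3 shortest coding regions, those of RPL41 (75 bases), RPL39 (153 bases) and RPS29 (168 bases), went with log2 deviations of 0.49, 0.44 and 0.35 in Ctrl+IGF1 replicate 3. The 3 longest, those of RPLP0 (951 bases), RPL3 (1209 bases) and RPL4 (1281 bases), went with 0.28, -0.06 and -0.01. The level itself gave opposite signs for the coding and the transcript length. Over the members, log2 mean TPM had r = 0.36 with coding length and r = -0.37 with principal transcript length. TPM is itself scaled for transcript length, so the negative value may partly reflect that scaling, which was not tested.

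After a smooth trend on transcript length was removed from each library, the member median was -0.07 for TMEM216+IGF1 against Ctrl+IGF1, 0.07 for TMEM216 against Ctrl, -0.04 for IGF1 in TMEM216 and 0.12 for IGF1 in Ctrl. The trend used the same annotated lengths, so a member annotated as too long was corrected like a longer gene. These medians are therefore not free of length. RPL13A, described above, was the only member that passed in any of the 7 contrasts after that correction. Averaged over IGF1, the contrast in which it passed, 1274 of 13071 features passed in either direction. Under each of the 3 other scalings (quantile normalization, median-of-ratios and scaling to the total of the other features), the member medians kept their sign in all 7 contrasts. Median-of-ratios scaling moved the median of all features by over 0.1 in the interaction, from 0.11 to 0.005, and the member median there from -0.23 to -0.34. Quantile normalization brought the member medians nearer to 0, to -0.11 in the interaction, -0.09 for TMEM216+IGF1 against Ctrl+IGF1, 0.03 for TMEM216 against Ctrl, -0.04 for IGF1 in TMEM216 and 0.08 for IGF1 in Ctrl. Median-of-ratios scaling took them away from 0, to -0.22, 0.11, -0.09 and 0.27 in the last 4 of these contrasts.

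FAU had a level within the range of the members. FAU averaged 867 ± 24.0 TPM in TMEM216+IGF1, 889.8 ± 116 TPM in TMEM216, 1045 ± 186 TPM in Ctrl+IGF1 and 854 ± 25.1 TPM in Ctrl (SD, n = 3 each). Of the 10 listed genes that encode ribosomal proteins or close relatives outside the rule, 8 were tested and 0 passed, with a median of -0.24 in TMEM216+IGF1 against Ctrl+IGF1, 0.06 in TMEM216 against Ctrl, -0.14 for IGF1 in TMEM216 and 0.11 for IGF1 in Ctrl. RPL10L was listed at 0 in all libraries, and RPL3L, a muscle form of RPL3, had at most 0.123 TPM. The mitochondrial ribosomal proteins, 78 of which were tested, had a median of -0.05 in TMEM216+IGF1 against Ctrl+IGF1, 0.04 in TMEM216 against Ctrl, -0.01 for IGF1 in TMEM216 and 0.10 for IGF1 in Ctrl. Among them MRPL2 passed as lower in the TMEM216 populations averaged over IGF1 (log2 -0.23 ± 0.058, limma, adjusted p = 0.0432), a call lost in 14 of 22 alternatives, among them those without any one library other than TMEM216 replicate 1.

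Among other genes of translation, single genes passed, and their counts are too small to say anything of the lists they belong to. Over all tested features 1.61% passed in TMEM216+IGF1 against Ctrl+IGF1, 1.09% in TMEM216 against Ctrl and 5.22% averaged over IGF1. Of 15 elongation and release factors, 1, EEF1A2, passed as lower, by -0.90 ± 0.109 in TMEM216+IGF1 against Ctrl+IGF1 (limma, adjusted p = 0.00128) and by -0.98 ± 0.109 in TMEM216 against Ctrl (adjusted p = 0.000737). It is the form of elongation factor 1A typical of muscle and neurons, and it kept its call in all 23 alternatives of both contrasts. Of 38 initiation factors, 1, EIF1, which guards start codon choice, passed as lower by -0.34 ± 0.067 in TMEM216+IGF1 against Ctrl+IGF1 (limma, adjusted p = 0.025) and by -0.32 ± 0.067 in TMEM216 against Ctrl (adjusted p = 0.0434). With IGF1 the call was lost in 10 of 23 alternatives (adjusted p up to 0.118), among them those without any one Ctrl or TMEM216+IGF1 library or Ctrl+IGF1 replicate 3. Without IGF1 it was lost in 16 of 23 (adjusted p up to 0.185), among them those without any one library other than Ctrl+IGF1 replicates 2 and 3. Averaged over IGF1, EIF1 kept its call in all 22 alternatives (log2 -0.33 ± 0.047, adjusted p = 0.00208). Of 11 chaperones and quality-control factors of ribosomal proteins, 1, ZNF598, a ubiquitin ligase of collided ribosomes, passed as lower averaged over IGF1 (log2 -0.32 ± 0.060, limma, adjusted p = 0.00951), in all 22 alternatives too. Of 14 genes of mTOR and S6 kinase signalling and 22 tested mRNAs with a terminal oligopyrimidine tract other than the members, 0 passed in each of the 7 contrasts (limma). In TMEM216+IGF1 against Ctrl+IGF1, 2 in each of these lists had an unadjusted p under 0.05. The share of all features at that cutoff is not given here.

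Reads of ribosomal protein genes are hard to place. In GENCODE v29, 76 of the 77 members have at least 1 annotated pseudogene named after them, 1133 in all, led by RPL23A with 91 and RPSA with 74. No feature in the deposited table carried such a pseudogene name, so reads that fit both a gene and its copies may be counted with the gene. In that annotation 30 members overlap another tested gene, 6 of them on the same strand (RPL17, RPL36, RPL36A, RPS10, RPS13 and RPS15A) and 25 on the opposite strand. The sources do not say whether reads were counted by strand, so these values are uncertain to that extent.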

How the data were processed

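The authors deposited TPM for 21574 features in 12 libraries of 4 groups. RSEM, StringTie and HISAT2 are named in the submitters' processing notes. Versions, genome build and annotation: not given in the sources used here. TPM holds no read counts, so depth is unknown, and counting intervals cannot be had. The labels do not say whether replicate numbers pair libraries, and the numbers were not taken to pair them. Features with at least 1 TPM in 3 or more libraries were kept, and log2(TPM + 1), a scale on which low genes change less, was fitted over all groups with limma 3.58.1 (R 4.3.3) with a mean-variance trend. Tests were two-sided, with Benjamini-Hochberg adjustment over 13071 features and a threshold of 0.05. The ± after a log2 fold change is limma's SE. The script was tested on simulated data. The members, lists and tests were chosen with earlier results of these data known, so no p is given for sums or correlations over the members. Named members are those highest and lowest in level and in variability, the shortest and the longest, the stalk and 5S proteins, RPS6, RPSA, RPS27A and those with the smallest p in each direction; some genes are not reported here. Lengths are those of GENCODE v29 principal transcripts, found for 95.5% of tested features. Start-site sequences are RefSeq's. Sums, figures and searches were made in Python 3.11.15 (numpy 2.4.6, pandas 2.3.3, scipy 1.17.1, matplotlib 3.10.9). Alternatives covered the pseudocount, filters, scalings, length correction, variance model, replicate block and libraries left out.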

Additional observations from a re-analysis of the deposited data

How the results depend on the processing

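The count of members past the threshold was 0 in every contrast and stayed 0 under every alternative of the pseudocount (0.1), filters (none, 5 TPM), variance model, libraries fitted and replicate block. It was 1 (RPL13A) for the TMEM216 populations averaged over IGF1 after quantile normalization and after length correction, and the cause was not tested. There, 959 and 1274 of all 13071 tested features passed in either direction. Leaving out 1 library gave 0 to 12 members for TMEM216+IGF1 against Ctrl+IGF1, 0 to 1 for IGF1 in Ctrl, 0 to 3 for TMEM216 averaged over IGF1, and 0 in the other 4 contrasts. The members named in those fits came from leaving out Ctrl+IGF1 replicate 2. With the replicate number as a block, 0 members passed in every contrast. Deviations of same-numbered libraries correlated between -0.286 and 0.165 (median 0.016), above 0.1 in 4 of 18 pairs. Those of different-numbered libraries correlated between -0.274 and 0.278 (median 0.004), above 0.1 in 6 of 36 pairs. With values this alike the numbers were not taken to pair libraries, which does not show that they are unpaired.

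The member share of TPM, leaving out 1 library at a time, differed by -2.56 to -0.313 percentage points for TMEM216+IGF1 against Ctrl+IGF1, 0.00857 to 0.870 for TMEM216 against Ctrl, -1.01 to 0.114 for TMEM216 averaged over IGF1, -0.774 to 0.0878 for IGF1 in TMEM216, 0.409 to 2.66 for IGF1 in Ctrl and -0.0176 to 1.11 for IGF1 averaged. With Ctrl+IGF1 replicate 3 and TMEM216 replicate 1 both left out it was 0.0878 for IGF1 in TMEM216. Signs turned only on leaving out 1 or both of those libraries; beyond that no cause was tested. The log2 ratio of small to large subunit ranged from -0.0269 to -0.0127 for TMEM216 and from 0.00235 to 0.0166 for IGF1 averaged, and without the 5 most abundant members the IGF1 value was -2.84e-05. The TMEM216 level difference ranged from 2.91 to 3.06 (log2). The centring on group means and the purine run from G were added after seeing the data. Limits are 3 libraries per group, unknown depth, and transcript lengths taken from an annotation that may not be the authors' own.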
